A study of Homo sapiens with 6 samples.

Results

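The circadian clock genes described here are 10 rows of an RNA-Seq table of 21NT cells: *ARNTL*, *ARNTL2*, *PER1*, *PER2*, *PER3*, *CRY1*, *CIART*, *NR1D1*, *NR1D2* and *DBP*. They were picked by gene symbol from 20824 genes, as core clock and output genes, and were chosen with the values of these same libraries known: *CIART* was included because it had moved in opposite directions with the 2 isoforms of TBX3. Their levels and differences are therefore given as a description, with no p-value. The mean over the 6 libraries reached 0.5 RPKM (reads per kilobase of transcript, relative to library size) for 9 of them and for 12805 genes in all, and *PER3* stayed under it.

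The 21NT line is a human breast cancer line that models ductal carcinoma *in situ* (DCIS). Stable transfection gave 3 pools of G418-resistant 21NT cells, 1 with the empty vector (EV), 1 with TBX3iso1 and 1 with TBX3iso2, each sequenced in 2 libraries. TBX3 is a T-box transcription factor, and its isoform TBX3iso2 holds a further stretch within the DNA-binding domain, encoded by exon 2a, that TBX3iso1 lacks. All 3 lines grew in the same serum-containing medium with insulin, EGF, hydrocortisone and G418. The 2 libraries of a line are replicates of 1 transfected pool, and the sources used here do not say whether they came from separate cultures, so SDs, SEs and p-values measure only the spread between these samples, which may be technical.

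Mammalian clocks run on a feedback loop of transcription. The activators BMAL1 (encoded by *ARNTL*) and CLOCK bind E-boxes and switch on the *PER* and *CRY* genes, whose proteins then inhibit the activators. A second loop joins the nuclear receptors REV-ERB alpha and beta (*NR1D1* and *NR1D2*), which repress *ARNTL* through ROR response elements (ROREs), and the output factor DBP acts through D-boxes. Peripheral tissues and cultured cells, mammary epithelium among them, run such clocks on their own, and glucocorticoids and serum can reset them. No harvest time or synchronization of the cells is given in the sources used here, so a shift in the phase of a rhythm and a change in its mean level cannot be told apart in these data. In bulk RNA, fewer cells of a type and less RNA per cell cannot be told apart either.

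Promoter sequences of all 10 genes were found in RefSeq (13 promoters, GRCh38.p14), where *ARNTL* and *ARNTL2* are listed as *BMAL1* and *BMAL2*. Those of *CIART*, *PER2* and *DBP* are shown because these genes are among those that differed most between the lines, and the stretch around a RORE of *ARNTL* because it is the site type through which REV-ERB proteins act. Each is written from 5′ to 3′ on the strand of its gene. Capitals mark E-boxes (CACGTG) in *CIART*, an E-prime box (CACGTT) and a D-box (TTACGTAA) in *PER2*, and the RORE in *ARNTL*, while *DBP* held none of the motifs searched. The 3 promoters cover 250 bases before the start site and 30 after it.
CIART, chr1:150282304-150282583, plus strand: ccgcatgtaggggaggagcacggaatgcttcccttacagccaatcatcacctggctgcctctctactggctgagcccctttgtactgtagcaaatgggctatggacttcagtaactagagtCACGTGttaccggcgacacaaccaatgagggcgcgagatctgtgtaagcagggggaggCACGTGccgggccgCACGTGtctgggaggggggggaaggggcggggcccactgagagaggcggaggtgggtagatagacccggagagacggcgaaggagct
PER2, chr2:238288581-238288860, minus strand: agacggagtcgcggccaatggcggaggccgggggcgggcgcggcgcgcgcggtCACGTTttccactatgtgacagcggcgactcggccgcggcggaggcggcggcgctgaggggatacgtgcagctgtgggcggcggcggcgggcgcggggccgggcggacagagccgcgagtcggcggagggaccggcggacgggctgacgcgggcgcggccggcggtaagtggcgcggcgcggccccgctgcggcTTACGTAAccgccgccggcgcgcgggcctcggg
DBP, chr19:48637350-48637629, minus strand: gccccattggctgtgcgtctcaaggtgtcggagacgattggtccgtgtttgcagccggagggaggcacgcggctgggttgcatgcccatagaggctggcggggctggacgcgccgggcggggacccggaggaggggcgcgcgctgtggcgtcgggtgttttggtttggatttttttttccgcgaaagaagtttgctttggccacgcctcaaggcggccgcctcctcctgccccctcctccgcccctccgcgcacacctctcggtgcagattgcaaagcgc
ARNTL, chr11:13277807-13277836, plus strand: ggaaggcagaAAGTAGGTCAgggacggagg

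The *CIART* promoter held 3 E-boxes, which began at −129, −71 and −57 from the start site. In *PER2* the E-prime box began at −197 and the D-box at −3, and the RORE of *ARNTL* began at base 28 after the start. Both strands were searched over 300 bases per promoter, 50 of them after the start, and no match overlapped another in these genes. E-boxes were found in 3 of the 13 promoters (of *PER1*, *CIART* and *NR1D2*), beside 7.26% of all 35116 RefSeq promoters. E-prime boxes were in 3 of the 13 (*PER2*, *CRY1* and *NR1D1*), beside 5.34% of all promoters. D-boxes (TTATGTAA or TTACGTAA) were in 3 of the 13 (*PER2*, *PER3* and *NR1D2*), beside 1.01%. A RORE was in 1 of the 13 (*ARNTL*), beside 0.379%. Neither the cyclic AMP response element TGACGTCA (1.85% of all promoters) nor the T-box core GGTGTGA (3.45%) occurred in any of the 13. A match describes these letters in this window and is not a measured binding site. The T-box core searched differs in its letters from the T-box motif that the paper identified within *SNAI2*. That motif was not searched for, so whether these promoters hold it or a close variant was not tested.

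The libraries held 43176600 to 54512400 alignments, so 1 RPKM corresponds to 43.2 to 54.5 alignments per kilobase of transcript. *TBX3* itself, counted as 1 gene over both isoforms, stood at 8.52 and 8.24 RPKM in the EV libraries, 13.1 and 11.4 with TBX3iso1 and 17.5 and 15.5 with TBX3iso2. The 7 breast epithelial markers summed to between 2660 and 3380 RPKM in every library. Within this sum, 2 of the 7 markers (*KRT18* and *KRT7*) had a higher mean than EV with TBX3iso1, but their libraries overlapped those of EV. With TBX3iso2 the mean of 4 was higher, of which *KRT8* overlapped EV. Mean *CDH1* was 144.9 RPKM in EV, 89.2 with TBX3iso1 and 102 with TBX3iso2, and *ERBB2* was 433.8, 298.4 and 257.6. *KRT7* was 566.6, 586.9 and 725. Fibroblast markers (6 of 6 listed) summed to 4.6 to 4.86 RPKM in EV, 8.12 to 8.69 with TBX3iso1 and 7.14 to 7.58 with TBX3iso2, nearly all of it *COL1A1*. The 4 endothelial markers summed to 7.37 to 7.73 RPKM in EV and 1.26 to 1.46 in the isoform lines, carried by *PECAM1*, with *CDH5*, *VWF* and *KDR* near 0. Leukocyte markers (3 of 4 listed) summed to 34 to 44.1 RPKM through *CD68*, with *PTPRC* and *CD3E* at or near 0. These marker levels moved with the transfected lines, as the clock genes did, and their part in the clock gene values was not tested.

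Log2 differences are of log2(RPKM + 0.1), fitted with limma over all genes tested, which understates the change of genes at low RPKM. A gene met the call criteria at an adjusted p under 0.05 (Benjamini-Hochberg) and a fold change over 1.5. Since the values that chose the clock genes enter these counts, the counts are set beside those of all genes and nothing is read from them. With TBX3iso1, 4 of the 9 clock genes tested met the criteria against EV, *ARNTL2* and *CIART* higher and *ARNTL* and *DBP* lower, while 21.5% of all genes tested did (7.46% higher, 14.1% lower). With TBX3iso2, 5 of 9 did, *ARNTL2* and *PER2* higher and *CIART*, *NR1D1* and *DBP* lower, beside 21.2% of all genes (8.94% higher, 12.3% lower). Between the isoforms, *CIART* and *DBP* met them, both lower with TBX3iso2, beside 6.29% of all genes (3.47% higher, 2.82% lower). The libraries did not overlap for 9, 8 and 8 of the 9 genes in the 3 comparisons, beside 78.4%, 74.7% and 53.5% of all genes. The median log2 difference of the 9 genes was −0.13 for TBX3iso1 and −0.42 for TBX3iso2 against EV and −0.15 between the isoforms, beside −0.05, −0.00 and 0.05 over all genes tested. Both comparisons with EV share its 2 libraries.

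**Figure D1:**
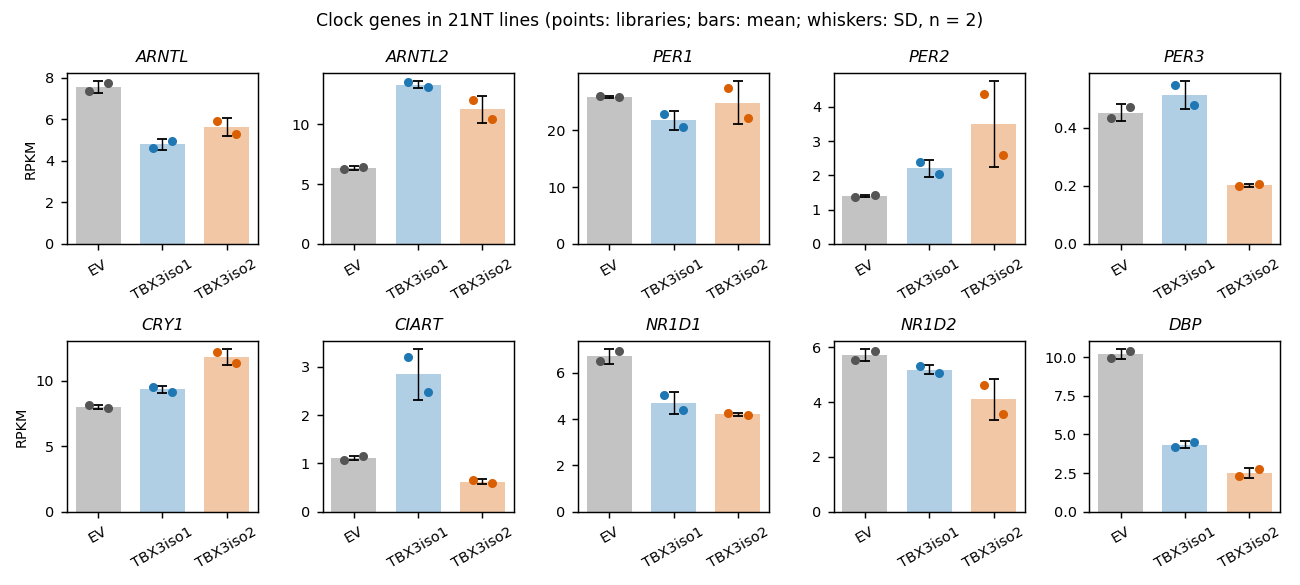
RPKM (vertical axis, linear and from 0) of the 10 clock genes in the 6 libraries. Points are libraries, bars the mean of a line and whiskers the SD of its 2 libraries. *CIART* stood highest with TBX3iso1 and lowest with TBX3iso2, and *DBP* was highest in EV and lowest with TBX3iso2.

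**Figure D2:**
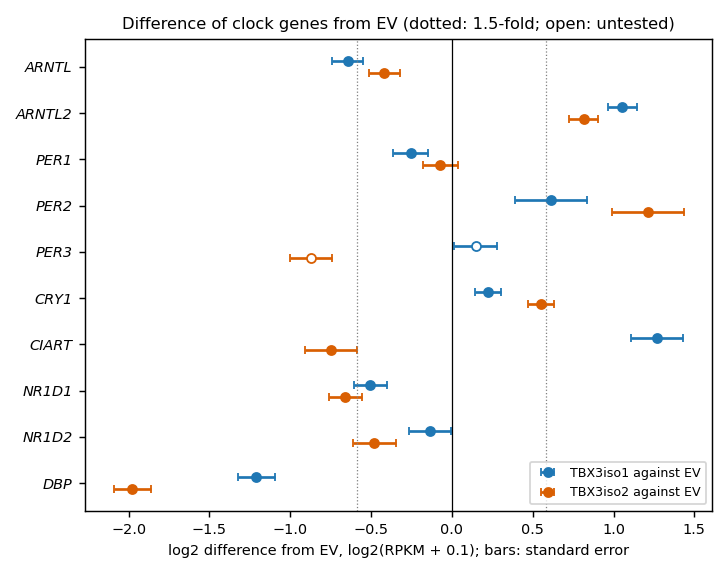
Log2 difference of each clock gene from EV (horizontal axis, log2(RPKM + 0.1)) for TBX3iso1 and TBX3iso2. Whiskers are the SE of the fit, dotted lines mark a 1.5-fold change and open points *PER3*, which was below the filter. The values ran from −1.98 for *DBP* with TBX3iso2 to 1.27 for *CIART* with TBX3iso1.

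Among the activators, *ARNTL* (GRCh37 chr11:13298199-13408813, plus strand) stood at 7.35 and 7.75 RPKM in EV, 4.61 and 4.97 with TBX3iso1 and 5.93 and 5.32 with TBX3iso2. Every library of both isoform lines lay below the EV libraries, and those of TBX3iso1 lay lowest. The log2 difference from EV was −0.64 ± 0.10 (SE, n = 2 libraries a line) for TBX3iso1 and −0.42 ± 0.10 for TBX3iso2. The first lies just past the 1.5-fold limit and fell short of it under median-ratio scaling, quantile normalization and a pseudocount of 1 RPKM, with the value nearest 0 at −0.52.

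*ARNTL2* (chr12:27485769-27578222, plus strand), which encodes the paralogue BMAL2, went the other way. Its level was 6.24 and 6.48 RPKM in EV, 13.5 and 13.1 with TBX3iso1 and 12.1 and 10.5 with TBX3iso2. The isoform lines lay above EV without overlap, TBX3iso1 above TBX3iso2, at log2 differences of 1.06 ± 0.09 (SE) and 0.81 ± 0.09 from EV. Within each library, *ARNTL2* RPKM divided by *ARNTL* RPKM was 0.849 and 0.836 in EV, 2.93 and 2.64 with TBX3iso1 and 2.04 and 1.97 with TBX3iso2, so the paralogue changed from the lower to the higher of the pair per length of transcript.

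Of the *PER* genes, which encode the repressors of the loop, *PER1* (chr17:8043790-8059824, minus strand) was the most abundant and varied least. It stood at 26.0 and 25.8 RPKM in EV, 22.9 and 20.5 with TBX3iso1 and 27.5 and 22.1 with TBX3iso2. The TBX3iso1 libraries lay below EV at a log2 difference of −0.26 ± 0.11 (SE). The TBX3iso2 libraries lay on either side of EV, and the difference of −0.07 ± 0.11 became 0.08 without TBX3iso2 replicate 2 and −0.23 without TBX3iso2 replicate 1.

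*PER2* (chr2:239152685-239198743, minus strand) stood at 1.38 and 1.43 RPKM in EV, 2.39 and 2.03 with TBX3iso1 and 4.38 and 2.61 with TBX3iso2. The 3 lines did not overlap and lay in that order from low to high, but the 2 TBX3iso2 libraries lay far apart. The log2 difference from EV was 0.61 ± 0.22 (SE) for TBX3iso1, past 1.5-fold in size but short of the adjusted p, and 1.21 ± 0.22 for TBX3iso2. The criteria were met for TBX3iso1 in 6 of 16 alternative settings (median-ratio scaling, quantile normalization, a fit of only the 2 lines, a replicate block, and without either TBX3iso2 library), and were not met for TBX3iso2 in a linear model without moderation. The latter ranged from 0.85 without TBX3iso2 replicate 1 to 1.58 without TBX3iso2 replicate 2. Between the isoforms, the difference of 0.60 ± 0.22 ranged from 0.24 to 0.96 over the same omissions, and met the criteria with the replicate block and without TBX3iso2 replicate 2.

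*PER3* (chr1:7844351-7905237, plus strand) was the least abundant of the genes. Its level was 0.432 and 0.471 RPKM in EV, 0.545 and 0.478 with TBX3iso1 and 0.198 and 0.205 with TBX3iso2, which corresponds to between 8.85 and 27.8 alignments per kilobase. The TBX3iso2 libraries lay below the others, at a log2 difference of −0.87 ± 0.13 (SE) from EV in a fit of all genes without the filter, and TBX3iso1 lay at 0.15 ± 0.13. *PER3* shares 868 exonic bases with *UTS2* on the opposite strand, and whether the authors' counting used strand is not stated, so reads of the pair cannot be told apart.

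*CRY1* (chr12:107385142-107487327, minus strand), the cryptochrome partner of the PER proteins, stood at 8.12 and 7.88 RPKM in EV, 9.53 and 9.16 with TBX3iso1 and 12.2 and 11.3 with TBX3iso2. The 3 lines did not overlap. The log2 difference from EV was 0.22 ± 0.08 (SE) for TBX3iso1 and 0.55 ± 0.08 for TBX3iso2, just inside the 1.5-fold limit. It passed that limit under quantile normalization and without TBX3iso2 replicate 2.

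*CIART* (chr1:150254953-150259505, plus strand) encodes CHRONO, a repressor of the CLOCK and BMAL1 pair. Its level was 1.08 and 1.14 RPKM in EV, 3.21 and 2.47 with TBX3iso1 and 0.659 and 0.586 with TBX3iso2. Both TBX3iso1 libraries lay above EV and both TBX3iso2 libraries below it, which is the pattern the gene was chosen for. The mean was 2.55 times that of EV with TBX3iso1 and 0.560 times with TBX3iso2, and the log2 differences were 1.27 ± 0.16 (SE) and −0.75 ± 0.16. Between the isoforms the log2 difference was −2.02 ± 0.16, with TBX3iso1 4.56 times higher.

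The depth behind *CIART* ran from 25.4 alignments per kilobase in a TBX3iso2 library to 164 in a TBX3iso1 library. The lower level with TBX3iso2 did not meet the call criteria with a pseudocount of 1 RPKM (log2 difference −0.38), under quantile normalization, in a linear model without moderation or without EV replicate 2 (−0.71).

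The REV-ERB gene *NR1D1* (chr17:38249046-38256842, minus strand) stood at 6.49 and 6.93 RPKM in EV, 5.04 and 4.38 with TBX3iso1 and 4.25 and 4.17 with TBX3iso2. All isoform libraries lay below EV, at log2 differences of −0.50 ± 0.10 (SE) for TBX3iso1 and −0.66 ± 0.10 for TBX3iso2. With a pseudocount of 1 RPKM the latter (−0.56) no longer met the criteria, and without TBX3iso1 replicate 1 the former (−0.60) did. *NR1D1* shares 473 exonic bases with *THRA*, a thyroid hormone receptor gene on the opposite strand, which stood at 4.86 and 4.23 RPKM in EV and between 2.43 and 2.86 in the isoform lines. Both genes of the overlapping pair were lower in the isoform lines, and their reads cannot be told apart where they overlap.

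*NR1D2* (chr3:23986777-24022108, plus strand) stood at 5.54 and 5.86 RPKM in EV, 5.31 and 5.06 with TBX3iso1 and 4.63 and 3.55 with TBX3iso2. The lines did not overlap but lay close, with log2 differences of −0.13 ± 0.13 (SE) and −0.48 ± 0.13 from EV. The latter was −0.67 without TBX3iso2 replicate 1 and −0.29 without TBX3iso2 replicate 2.

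*DBP* (chr19:49133287-49140636, minus strand), a D-box factor driven by the clock through E-boxes, lay furthest below EV. It stood at 9.95 and 10.4 RPKM in EV, 4.17 and 4.52 with TBX3iso1 and 2.28 and 2.76 with TBX3iso2. The lines did not overlap, and EV was 2.34 times the mean of TBX3iso1 and 4.04 times that of TBX3iso2. The log2 differences were −1.21 ± 0.11 (SE), −1.98 ± 0.11 and, between the isoforms, −0.77 ± 0.11. In a linear model without moderation the difference between the isoforms did not meet the criteria. *DBP* shares 661 exonic bases with *SPHK2* on the opposite strand, whose level was 3.92 and 3.43 RPKM in EV, 4.45 and 3.88 with TBX3iso1 and 3.35 and 3.66 with TBX3iso2. Other clock genes share exonic bases with long noncoding RNA genes on the opposite strand: *PER3* (482), *ARNTL* (421), *PER2* (188), *CRY1* (94) and *ARNTL2* (73). *PER1* shares 30 with a protein-coding gene on its own strand. How far such reads enter the values, those of *ARNTL* in the ratios below among them, was not tested.

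The order of levels per transcript length also differed between the lines. In EV it was *PER1*, *DBP*, *CRY1*, *ARNTL*, *NR1D1*, *ARNTL2*, *NR1D2*, *PER2*, *CIART* and *PER3*, and no neighbours overlapped. With TBX3iso1, *ARNTL2* was second and *DBP* seventh, and the libraries of *ARNTL*, *NR1D1* and *DBP* overlapped their neighbours. With TBX3iso2, *CRY1* and *ARNTL2* followed *PER1* and overlapped each other, *DBP* was eighth and overlapped *PER2*, and *CIART* and *PER3* came last.

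Ratios within a library do not depend on how libraries were scaled. *DBP* RPKM over *ARNTL* RPKM was 1.35 and 1.34 in EV, 0.903 and 0.91 with TBX3iso1 and 0.385 and 0.518 with TBX3iso2. *CIART* over *ARNTL* was 0.147 and 0.148 in EV, 0.695 and 0.497 with TBX3iso1 and 0.111 and 0.11 with TBX3iso2. *CIART* was chosen for this order of the 3 lines and its same values enter the ratio, so the order is a description. As log2(RPKM + 0.1) minus that of *ARNTL*, *CIART* differed from EV by 1.91 with TBX3iso1 and by −0.33 with TBX3iso2. *PER2* over *ARNTL* was 0.187 and 0.184 in EV, 0.517 and 0.408 with TBX3iso1 and 0.738 and 0.491 with TBX3iso2, where the lower TBX3iso2 library lay below the higher TBX3iso1 library. *NR1D1* over *ARNTL* did not separate EV (0.884 and 0.895) from TBX3iso1 (1.09 and 0.881), and was lower with TBX3iso2 (0.717 and 0.785). *PER2* over *DBP* was 0.138 and 0.137 in EV, 0.573 and 0.448 with TBX3iso1 and 1.92 and 0.946 with TBX3iso2, without overlap between the lines.

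**Figure D3:**
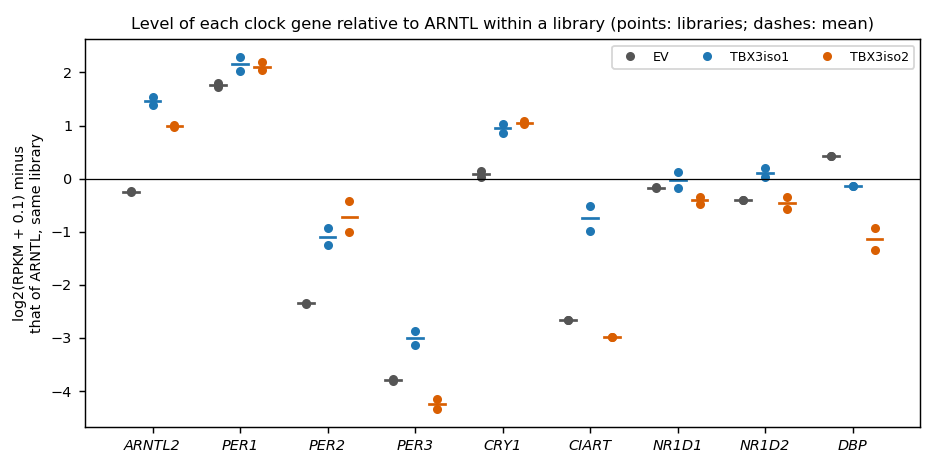
Log2(RPKM + 0.1) of each clock gene minus that of *ARNTL* in the same library (vertical axis). Points are libraries and dashes the mean of a line. The *CIART* points lay near −2.66 in EV, between −0.98 and −0.51 with TBX3iso1 and near −2.99 with TBX3iso2.

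Clock genes outside the 10 were taken from a written list of 20, of which 19 are in the table and 15 were tested, while *FBXL21* was not analysed here. The list was chosen with earlier results of these data known, so its counts and p-values are given as a description. With TBX3iso1, 0 of 15 met the call criteria in limma against EV, beside 21.5% of all genes tested. Of the 15, 6 had an unadjusted p under 0.05, 0 met the criteria in a linear model without moderation, and 1 met them in a fit without the filter on low values, which adds the 4 genes below the filter. With TBX3iso2, 4 of 15 met them against EV (2 higher, 2 lower), beside 21.2% of all genes, and between the isoforms 2 of 15 did, both lower with TBX3iso2, beside 6.29%. The median log2 difference of the 15 genes was 0.02, −0.12 and −0.06 in the 3 comparisons.

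*NPAS2*, a paralogue of *CLOCK* that can replace it as partner of BMAL1, stood at 16.0 and 16.0 RPKM in EV, 21.8 and 21.1 with TBX3iso1 and 27.1 and 25.2 with TBX3iso2. It rose with TBX3iso2 at a log2 difference of 0.70 ± 0.07 (SE, limma adjusted p = 0.000257). With TBX3iso1 the difference of 0.42 ± 0.07 passed the adjusted p (0.0028) but not the fold limit. *CLOCK* stood at 8.74 and 9.01 RPKM in EV, 7.97 and 7.29 with TBX3iso1 and 7.07 and 5.20 with TBX3iso2, a log2 difference of −0.54 ± 0.14 for TBX3iso2 that stayed under 1.5-fold (limma adjusted p = 0.0161). *NPAS2* RPKM over *CLOCK* RPKM was 1.83 and 1.78 in EV, 2.74 and 2.89 with TBX3iso1 and 3.82 and 4.86 with TBX3iso2, without overlap between the lines.

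*BHLHE41* encodes DEC2, a repressor that competes for E-boxes. It stood at 7.87 and 8.07 RPKM in EV, 8.78 and 7.96 with TBX3iso1 and 4.54 and 3.79 with TBX3iso2. With TBX3iso2 it fell, at a log2 difference of −0.93 ± 0.11 (SE, limma adjusted p = 0.000478) against EV and −0.99 ± 0.11 (adjusted p = 0.00166) against TBX3iso1. Its relative *BHLHE40*, encoding DEC1, lay between 16.7 and 22.6 RPKM in the 6 libraries.

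*TEF*, a D-box factor of the same family as DBP, stood at 2.79 and 2.82 RPKM in EV, 2.88 and 2.74 with TBX3iso1 and 1.76 and 1.46 with TBX3iso2. With TBX3iso2 it fell, at a log2 difference of −0.77 ± 0.12 against EV (limma adjusted p = 0.00208) and −0.77 ± 0.12 against TBX3iso1 (adjusted p = 0.00743). With TBX3iso1 the log2 difference from EV was 0.00 ± 0.12. A pseudocount of 1 RPKM left *TEF* under 1.5-fold in both (−0.54 and −0.55), and in a linear model without moderation neither *TEF* nor *BHLHE41* met the criteria between the isoforms. *TIPIN*, whose product binds TIMELESS in DNA replication, stood at 9.89 and 9.97 RPKM in EV, 11.7 and 13.5 with TBX3iso1 and 16.2 and 18.6 with TBX3iso2, a log2 difference of 0.80 ± 0.10 (limma adjusted p = 0.000686) for TBX3iso2 against EV. Among the tested genes of the list that met the criteria in none of the 3 comparisons were *CLOCK*, *CRY2*, *NFIL3*, *BHLHE40*, *CSNK1D*, *CSNK1E*, *GSK3B*, *BTRC*, *FBXW11* and *TIMELESS*.

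**Figure D4:**
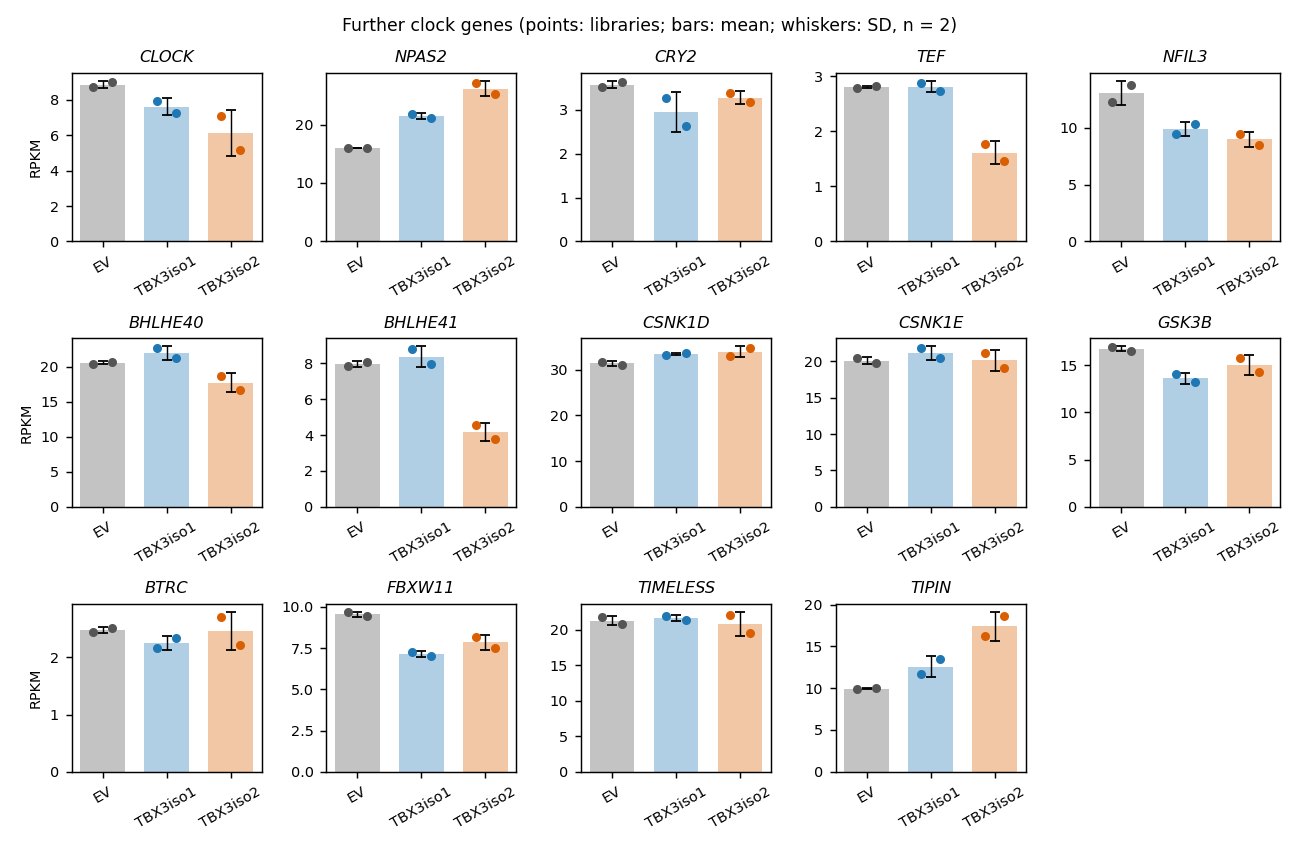
RPKM (vertical axis, linear and from 0) of further clock genes tested. Points are libraries, bars the mean of a line and whiskers the SD of its 2 libraries. *NPAS2* and *TIPIN* stood highest, and *TEF* and *BHLHE41* lowest, with TBX3iso2.

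Genes known in other tissues as clock outputs came from a written list of 12, of which 10 are in the table and 8 were tested, while *GSTP1* and *CYP7A1* were not analysed here. Earlier results of these data were known when this list was chosen, so its counts and p-values are also a description. Against EV, 3 rose and 1 fell with TBX3iso1, beside 7.46% and 14.1% of all genes. With TBX3iso2, 4 rose and 1 fell (8.94% and 12.3% of all genes), and between the isoforms 1 was higher and 2 lower with TBX3iso2 (3.47% and 2.82%). The median log2 difference was 0.20, 0.62 and −0.02. *HSD11B1*, which regenerates active glucocorticoid, stood at 0.173 and 0.0549 RPKM in EV, 1.72 and 1.95 with TBX3iso1 and 0.357 and 0.334 with TBX3iso2. It is in these counts but passed the filter on low values only through the TBX3iso1 libraries, where it is high, so no p-value is given for it. The log2 difference of *HSD11B1* for TBX3iso2 was 1.11 ± 0.27, but 0.70 without EV replicate 2 and 0.27 with a pseudocount of 1 RPKM, and met the criteria in neither. *KLF10* and *PPARA* were called in both comparisons, at log2 differences of 0.82 ± 0.12 and −0.95 ± 0.21 for TBX3iso1. The call of *PPARA* for TBX3iso1 was lost without EV replicate 1 (−0.91) or EV replicate 2 (−0.98) and with a pseudocount of 1 RPKM (−0.56). A linear model without moderation called neither *KLF10* nor *PPARA* for TBX3iso1, and not *PPARA* for TBX3iso2. *NOCT*, a rhythmic phosphatase gene, rose with TBX3iso2 by 0.97 ± 0.10 (limma adjusted p = 0.000268). These genes have other inputs than the clock.

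*PER1* is also a direct target of the glucocorticoid receptor, and hydrocortisone was in the medium of all lines. Of 6 listed glucocorticoid-induced genes, 5 were tested. This list too was chosen with earlier results of these data known, so its counts and p-values are a description and nothing is read from them. Against EV, 3 fell with TBX3iso1 and 4 with TBX3iso2, beside 14.1% and 12.3% of all genes. Between the isoforms *DUSP1* was higher and *SGK1* lower with TBX3iso2, beside 3.47% and 2.82% of all genes. The fall of *TSC22D3* with TBX3iso2 stayed under 1.5-fold without TBX3iso2 replicate 2 (log2 difference −0.55), as did that of *SGK1* between the isoforms (−0.56), and the call of *DUSP1* was lost in 9 of 16 alternative settings. The median log2 difference was −0.68, −0.79 and 0.02. *DUSP1* went the other way with TBX3iso2, where both libraries lay above EV at a log2 difference of 0.49, which is under 1.5-fold. *KLF9* stood at 8.99 and 8.99 RPKM in EV, 3.54 and 3.46 with TBX3iso1 and 3.98 and 3.17 with TBX3iso2, at log2 differences of −1.34 ± 0.12 (SE, limma adjusted p = 0.000137) and −1.32 ± 0.12 (adjusted p = 0.000149). For *SGK1* the log2 differences were −0.68 ± 0.11 and −1.33 ± 0.11 (limma adjusted p = 0.0018 and 8.96e-05). Whether the values of this list bear on those of the clock genes was not tested.

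The genes tested whose profile over the 6 libraries lay nearest to that of *CIART*, by Euclidean distance of centred log2(RPKM + 0.1), were *ENO2* (distance 0.39), *PPFIA4* (0.545), *TMEM45A* (0.558), *ALPP* (0.59) and *PLBD1* (0.629). *ENO2* stood at 7.55 and 8.59 RPKM in EV, 20.0 and 19.6 with TBX3iso1 and 5.85 and 5.61 with TBX3iso2. Nearest to *DBP* were *NNMT* (0.27), *SCNN1B* (0.279), LOC100049716 (0.302), *CSF1* (0.306) and *GCNT1* (0.307). *NNMT* stood at 15.7 and 17.4 RPKM in EV, 5.87 and 6.95 with TBX3iso1 and 3.42 and 3.66 with TBX3iso2. The distance describes likeness over 6 libraries of 3 lines and carries no test.

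**Figure D5:**
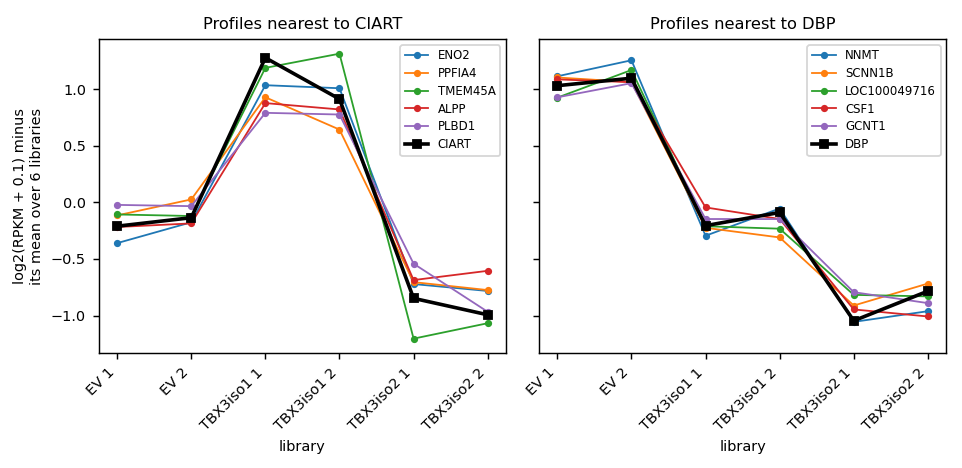
Log2(RPKM + 0.1) minus its mean over the 6 libraries (vertical axis) by library (horizontal axis) for *CIART* and *DBP* (black) and the 5 genes nearest to each. The profiles of the *CIART* group peak in the TBX3iso1 libraries and those of the *DBP* group are highest in EV and lowest with TBX3iso2.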

How the data were processed

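RNA-Seq of 21NT cells carrying EV, TBX3iso1 or TBX3iso2 was analysed, 2 libraries per line, grouped by the sample labels. The authors prepared stranded mRNA libraries, aligned paired-end reads to hg19 with TopHat and computed RPKM in Partek Genomics Suite, and deposited these RPKM values with the alignments of each library. Software versions, the annotation and the strand setting are not given in the sources used here. No read counts were used, since the table holds RPKM.

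Genes whose mean reached 0.5 RPKM (12805) were fitted in limma 3.58.1 under R 4.3.3 as log2(RPKM + 0.1). The model held a mean for each line, its variances were moderated by empirical Bayes (trended), and p-values were adjusted by Benjamini-Hochberg over those genes. The fit was tested on simulated data. The clock genes and the lists were chosen with earlier results of these data known. Named were all 10 clock genes, listed genes that were called, and the 5 profiles nearest to *CIART* and to *DBP*. Some genes that meet this rule enter the counts but are not named here. Promoters came from RefSeq (GRCh38.p14) and gene positions from GENCODE for GRCh37. Alternatives were other pseudocounts, filters, scalings and models, and leaving out each library. Depth limits precision for genes at low RPKM, where few alignments stand behind a value.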

Additional observations from a re-analysis of the deposited data

Results flagged for a closer look

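*CIART* was flagged because all libraries of TBX3iso1 lay above EV and all of TBX3iso2 below it, with a log2 difference of −2.02 between the isoforms (1.27 for TBX3iso1 and −0.75 for TBX3iso2 against EV). The gene was chosen for this pattern, so the difference is a description and no p-value is given for it. *BHLHE40* was flagged for the same split at a smaller size, with a log2 difference of −0.31 between the isoforms, which is under 1.5-fold. Its differences from EV were 0.09 for TBX3iso1 and −0.22 for TBX3iso2, and neither met the call criteria. Since *BHLHE40* was flagged by these values, no p-value is given for them or for its difference between the isoforms. How many of all genes show such a split was not counted.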

How the results depend on the processing

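Over 16 alternative settings, no called value changed sign. With a pseudocount of 1 RPKM, 1812 genes in place of 2757 were called for TBX3iso1 against EV and 1870 in place of 2720 for TBX3iso2. Between the isoforms 419 in place of 805 were called. That setting called 3 clock genes in each comparison with EV and 1 further clock gene between the isoforms. A linear model without moderation called 1890 genes for TBX3iso1 and 1963 for TBX3iso2 against EV, and 199 between the isoforms. It called 3 clock genes for TBX3iso2 against EV, 1 clock gene between the isoforms and 0 further clock genes there. With a filter at 2 RPKM, which drops *CIART*, 504 genes and 1 clock gene were called between the isoforms. Without a filter, 1 further clock gene was called for TBX3iso1. That fit also called 6 clock genes for TBX3iso2 against EV and 3 between the isoforms, *PER3* being the gene added, at few alignments. Leaving out 1 library gave 4 to 5, 4 to 6 and 2 to 3 clock genes in the 3 comparisons. The 15 further clock genes gave 0, 4 to 6 and 2. *DUSP1* between the isoforms ranged from 0.41 without TBX3iso2 replicate 1 to 0.91 without TBX3iso2 replicate 2. A replicate block, for the numbers that the libraries share in the labels, called 2838, 2795 and 900 genes and 5, 5 and 3 clock genes, *PER2* being the gene added for TBX3iso1 and between the isoforms. The differences between replicates 1 and 2 correlated across 12805 genes at r = 0.499 between TBX3iso1 and TBX3iso2. With EV the correlation was 0.22 for TBX3iso1 and 0.114 for TBX3iso2. The labels tie no batch, day or culture to a number, so the block was kept as an alternative. Among 429 log2 differences of single clock genes under the alternatives, 22 stood on the other side of the call criteria than reported. Of 427 for the other called genes of the lists, 396 kept their direction and call and 31 lost the call, none of them changing sign. The cause was not tested.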
